A study of Mus musculus with 4 samples.

Results

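The genes described here are the 36 mouse genes of glycolysis and the pentose phosphate pathway chosen by symbol: glucose transporters, glycolytic enzymes and their isoenzymes, lactate dehydrogenases and lactate carriers, regulators of fructose 2,6-bisphosphate, pyruvate dehydrogenase kinases, and pentose phosphate enzymes. All 36 were found by identifier among the 50600 genes of each deposited table. They were measured by RNA sequencing in 4 libraries of Th17 cells, the CD4 T helper cells that secrete interleukin 17. They are primary cells from mice of the C57BL/6NJ strain, with a linked CD4 T cell differentiation protocol, and 72 hr stands in each file header. No genetic change or further agent is named, sex was not collected and age is unknown. The labels put all libraries in 1 group, biological replicates 1 to 4, with no other cell type and no control arm. They list 4 biosamples under 1 donor identifier without saying whether these came from separate animals, so p-values measure only the spread between these samples, which may be technical. The labels call the assay total RNA sequencing, while the title of the linked library protocol names poly(A)+ RNA.

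Glycolysis breaks glucose down to pyruvate in the cytosol and yields ATP, and lactate dehydrogenase turns pyruvate into lactate, which leaves the cell through monocarboxylate transporters. The pentose phosphate pathway branches off at glucose 6-phosphate and yields NADPH and ribose 5-phosphate. Several steps are catalysed by isoenzymes from separate genes that differ in regulation and in the tissues where they prevail. Activated T cells raise glucose uptake and lactate release, and Th17 cells are known for a strongly glycolytic programme in which the transcription factor HIF-1 takes part.

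Total counts ranged from 33123029 to 37746767. Levels are given as TPM, the count per base of a gene's summed exon length, brought to 1 common total in every library. Replicate 2 stood apart from the other libraries across the transcriptome. The summed level of 8 Th17 markers was 1404 TPM in replicate 2 and 5430 to 6201 TPM in the others, and all 8 had a mean of at least 1 TPM. Il17a and Il17f carried most of that sum, 1083 TPM in replicate 2 and 4774 to 5451 TPM in the others, and the other 6 summed to 321 TPM against 655 to 749.9 TPM. Il1r1 was at 42.5 TPM in replicate 2 and 40.8 to 44.5 TPM in the others. The 5 general T cell markers summed to 2220 TPM in replicate 2 against 2325 to 2394 TPM. Of 7 myeloid markers, 2 reached a mean of 1 TPM, Lyz2, S100a8 and S100a9 had 0 counts in every library, and the sum was 11.2 TPM in replicate 2 and 11.7 to 13.0 TPM in the others. The 3 dendritic cell markers summed to 11.7 TPM in replicate 2 and 1.00 to 1.45 TPM in the others, mostly Flt3 in each, and Siglech was at 0. B cell markers (2 of 5 at 1 TPM or more) summed to 108 TPM against 104 to 113 TPM, and CD8 T cell markers (1 of 2) to 31.6 TPM against 41.7 to 48.0 TPM. NK markers (1 of 3) summed to 2.59 TPM against 2.44 to 3.79 TPM and erythroid markers (0 of 3) to 0.748 TPM against 0 to 0.523 TPM, with Ncr1 and Hbb-bs at 0. Stromal and epithelial markers (2 of 6) summed to 22.6 TPM in replicate 2 and 18.9 to 21.1 TPM in the others, with Krt14 at 0. The part of these differences in the results below was not tested.

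Transcripts of the core pathway were abundant, and Ldha was the highest. The 36 genes together held 1.90%, 1.49%, 1.94% and 1.93% of all TPM in replicates 1 to 4. Ldha ranked 13, Pkm 23, Gapdh 25, Tpi1 44, Aldoa 46 and Eno1 82 among all genes by mean TPM with summed exon length. With the length of 1 reference transcript per gene, mean TPM was 5390 for Ldha, 5145 for Gapdh and 3394 for Pkm. It was 2683 for Aldoa, 2197 for Eno1 and 1958 for Tpi1, so the order below Ldha depended on length. Of the 36 genes, 35 had at least 10 counts over the libraries, and all 35 were above 1 TPM (edgeR quasi-likelihood fit of the level, adjusted p under 0.05 over 17337 genes), against 70.7% of all genes tested. The exception was Pdk4, with 0, 0, 1 and 4 counts.

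**Figure D1:**
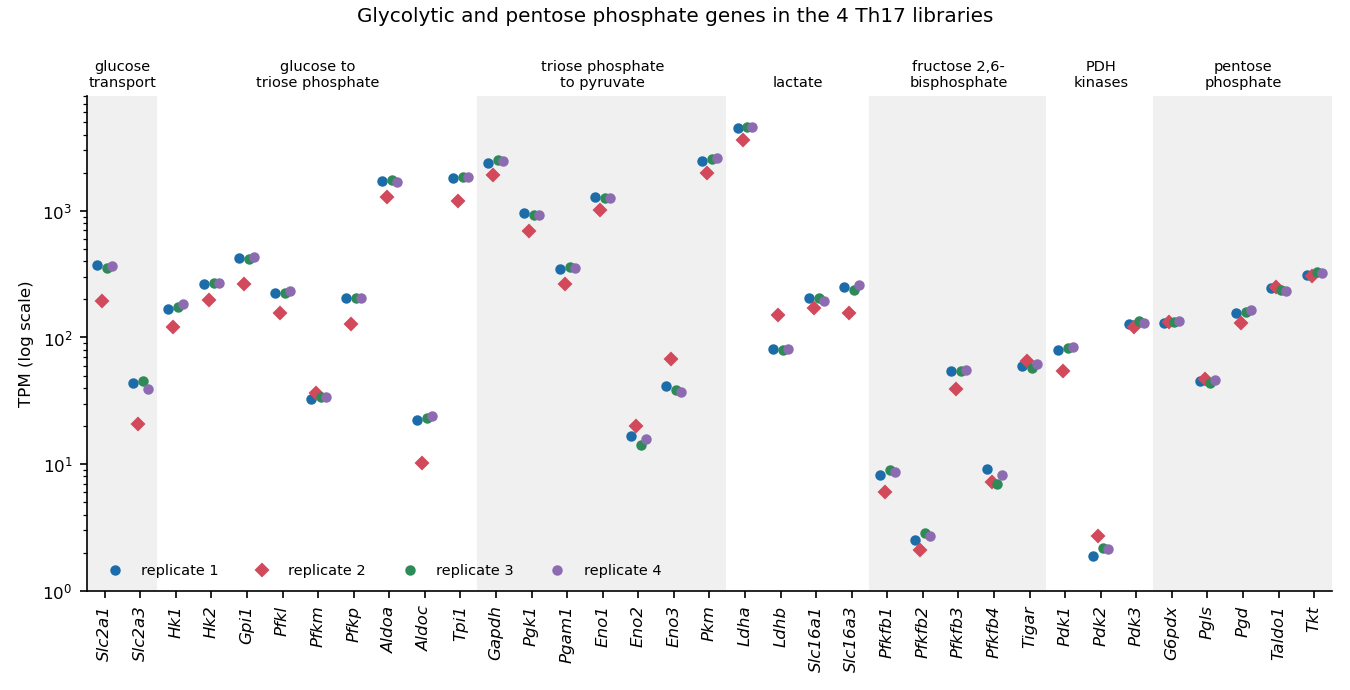
Level of each gene in each of the 4 Th17 libraries, in TPM on a log axis, grouped by step of the pathway; each point is 1 library, and Pdk4, at 0 TPM in replicates 1 and 2, is not drawn. Replicates 1, 3 and 4 lie on top of one another for most genes, and replicate 2 lies below them for most glycolytic genes and above them for Ldhb and Eno3.

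Among the libraries, only replicate 2 had genes that passed the test. In the test of each library against the other 3, which compares libraries and not conditions, 22 of the 35 genes were lower in replicate 2 and 4 were higher (edgeR adjusted p under 0.05), against 10.9% lower and 11.7% higher among all genes tested. Another 9 did not pass. The median log2 change of the 35 genes was -0.30, and that of all genes tested was -0.01. The genes were chosen with lower glycolytic genes in replicate 2 already known, so these contrasts with all genes are no independent evidence. In replicates 1, 3 and 4, the median log2 change of the 35 genes was 0.06, 0.10 and 0.08, against -0.01 in each for all genes tested. None of the 35, and no gene of all those tested, passed in either direction. DESeq2, and edgeR with replicate 2 left out, also called none of the 35. Both did call some of all genes tested in each of these libraries. In bulk RNA, fewer cells of a type and less RNA per cell cannot be told apart.

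Promoter sequences of 4 genes are shown because these genes moved in opposite directions in replicate 2: Ldha and Slc2a1 were lower, Ldhb and Eno3 higher. Each is the stretch of 250 bases before the gene's start in RefSeq (GRCm38.p6), written 5′ to 3′ on the gene's strand. Capitals mark every ACGTG or GCGTG on either strand, the letters around which HIF-1 binding sites are built. For Ldha, 1 of its 2 listed windows is shown, which lies inside the gene's span in the deposited tables. The end of the Slc2a1 window also reaches into the span of Slc2a1, which starts at 119108711 there.
Ldha promoter, GRCm38.p6 chr7:46845554-46845803, plus strand: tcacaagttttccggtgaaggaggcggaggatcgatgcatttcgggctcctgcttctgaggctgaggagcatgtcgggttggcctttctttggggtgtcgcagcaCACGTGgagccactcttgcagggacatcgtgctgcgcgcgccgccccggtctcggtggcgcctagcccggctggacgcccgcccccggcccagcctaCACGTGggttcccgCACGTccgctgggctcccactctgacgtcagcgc
Slc2a1 promoter, GRCm38.p6 chr4:119108495-119108744, plus strand: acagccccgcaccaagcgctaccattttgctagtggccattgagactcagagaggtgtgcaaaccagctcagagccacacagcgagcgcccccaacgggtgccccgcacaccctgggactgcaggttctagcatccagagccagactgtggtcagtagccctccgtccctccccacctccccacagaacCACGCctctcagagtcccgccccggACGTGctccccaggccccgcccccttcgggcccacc
Ldhb promoter, GRCm38.p6 chr6:142507958-142508207, minus strand: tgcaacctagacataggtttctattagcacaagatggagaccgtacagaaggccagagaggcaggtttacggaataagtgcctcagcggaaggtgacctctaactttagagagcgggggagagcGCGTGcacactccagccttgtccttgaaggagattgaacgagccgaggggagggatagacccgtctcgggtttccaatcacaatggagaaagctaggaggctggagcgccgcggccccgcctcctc
Eno3 promoter, GRCm38.p6 chr11:70656926-70657175, plus strand: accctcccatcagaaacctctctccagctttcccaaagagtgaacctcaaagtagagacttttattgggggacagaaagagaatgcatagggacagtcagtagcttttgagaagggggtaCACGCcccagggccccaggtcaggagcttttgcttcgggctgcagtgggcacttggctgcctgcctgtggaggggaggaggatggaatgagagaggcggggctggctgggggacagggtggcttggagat

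The Ldha window held 3 such places, and 2 of them were the palindrome CACGTG, which contains ACGTG on both strands and is also the E-box bound by MYC. The Slc2a1 window held 2 places, and the Ldhb and Eno3 windows 1 each, both with GCGTG. Windows were listed for 35 of the 36 genes; Slc2a3 is named only. Either strand held ACGTG in 18 of 55 windows of these genes (32.7%), against 16.6% of all 32851 windows of the same length. GCGTG was found in 30 of 55 (54.5%), against 28.2%, and CACGTG in 6 of 55 (10.9%), against 6.02%. Among genes lower in replicate 2, 12 of 35 windows held ACGTG and 17 held GCGTG. For the 4 genes that were higher, 0 of 4 windows held ACGTG and 2 held GCGTG. Among those that did not pass, 6 of 15 held ACGTG and 10 held GCGTG. By gene, 14 of the 35 had ACGTG in a window, against 4998 of all 27025 genes with windows. A gene with several windows counts more than once in the window shares. The windows of all genes were not matched to these for expression or base composition. These are matches of letters in a window and no measure of binding.

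Slc2a1 (GLUT1) was the higher of the 2 glucose transporters among the 36 genes, and both were lower in replicate 2. In replicates 1 to 4, Slc2a1 (chromosome 4, 119108711 to 119137983, plus strand, mm10) was at 371, 195, 353 and 367 TPM. Slc2a3 (GLUT3, a transporter of high affinity) was at 43.7, 20.6, 44.9 and 39.2 TPM. Replicate 2 was the lowest library for both, without overlap. The other libraries stood 1.79-fold above it for Slc2a1 (log2 change -0.84, SE 0.05, edgeR adjusted p = 9.84e-11) and 1.98-fold for Slc2a3 (log2 change -0.98, SE 0.08, edgeR adjusted p = 1.19e-07). Slc2a1 held 89.7% ± 0.816 (SD, n = 4) of the TPM of the pair, and the Slc2a3 share was 9.56% in replicate 2 and 9.64% to 11.3% in the others. Of 8 other transporters of the family that were listed, Slc2a6 was above Slc2a3, at 102, 88.5, 102 and 105 TPM, and Slc2a8 was at 11.9, 13.3, 10.8 and 10.4 TPM. Over all 10, Slc2a1 held 67.2% ± 4.40 (SD, n = 4) of the summed TPM, Slc2a6 21.6% ± 3.95 and Slc2a3 7.70% ± 1.01. Slc2a2, the form of liver and beta cells, was at most 0.368 TPM, and Slc2a4, the insulin-responsive form of muscle and fat, at most 1.36 TPM.

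Both Hk1 and Hk2, the hexokinases that trap glucose as glucose 6-phosphate, were expressed at levels of the same order. Hk1 was at 168, 121, 174 and 185 TPM and Hk2 at 263, 199, 268 and 269 TPM. Hk2 held 60.8% ± 1.19 (SD, n = 4) of their summed TPM, and its log2 ratio to Hk1 was 0.63 ± 0.07 (SD, n = 4) with summed exon length. That order depended on length: with the length of 1 reference transcript per gene the ratio was -0.40 ± 0.07, so the order of the pair is uncertain. Both were lower in replicate 2, with log2 changes of -0.48 for Hk1 and -0.36 for Hk2 (edgeR adjusted p = 5.57e-07 and 4.98e-06). Outside the 36 genes, Hk3 was at most 0.194 TPM and Hkdc1 had 1 count in all.

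Gpi1, which converts glucose 6-phosphate to fructose 6-phosphate, was at 424, 265, 416 and 433 TPM and was lower in replicate 2 (log2 change -0.62, SE 0.04, edgeR adjusted p = 1.67e-09).

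Phosphofructokinase, the committed step, was made up of the liver (Pfkl) and platelet (Pfkp) forms, with little of the muscle form Pfkm. Pfkl was at 226, 156, 225 and 233 TPM, and Pfkp at 205, 128, 206 and 207 TPM. Pfkm was at 32.5, 36.4, 33.9 and 34.0 TPM. Shares of their summed TPM were 48.7% ± 0.346 for Pfkl, 43.1% ± 2.02 for Pfkp and 8.21% ± 2.10 for Pfkm (SD, n = 4). Pfkl and Pfkp were lower in replicate 2 (log2 change -0.49 and -0.62, edgeR adjusted p = 1.06e-07 and 1.98e-09), whereas Pfkm did not pass (log2 change 0.18, edgeR adjusted p = 0.156). The Pfkm share was 11.4% in replicate 2 and 7.01% to 7.30% in the others. Pfkl exceeded Pfkp in 4 of 4 libraries by a log2 ratio of 0.18 ± 0.07, but with reference transcript lengths the ratio was -0.16 ± 0.07.

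Aldolase was almost entirely Aldoa, the form of muscle and most other tissues, and the brain form Aldoc was the gene with the largest fall in replicate 2 of the 35 tested. Aldoa was at 1731, 1286, 1741 and 1697 TPM, and Aldoc at 22.3, 10.3, 23.0 and 24.2 TPM. Aldoa held 98.8% ± 0.274 (SD, n = 4) of the TPM of the pair, and the Aldoc share was 0.791% in replicate 2 and 1.27% to 1.41% in the others. Aldoc was 2.17-fold higher in the other libraries than in replicate 2 (log2 change -1.11, SE 0.11, edgeR adjusted p = 2.38e-07), and Aldoa 1.28-fold (log2 change -0.36, SE 0.04, edgeR adjusted p = 7.18e-07). Tpi1, which interconverts the triose phosphates, was at 1799, 1190.0, 1835 and 1855 TPM and lower in replicate 2 (log2 change -0.56, SE 0.04, edgeR adjusted p = 2.14e-09). The 9 genes from hexokinase to triose phosphate isomerase had a median log2 change of -0.49 in replicate 2, against -0.01 for all genes tested. Among them, only Pfkm did not fall.

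The 5 main genes from triose phosphate to pyruvate were all lower in replicate 2, while Eno2 and Eno3 were higher. Gapdh, which makes 1,3-bisphosphoglycerate and NADH, was at 2369.6, 1927, 2509 and 2454 TPM. Pgk1, which makes ATP in the next step, was at 960.0, 689.8, 925 and 919.6 TPM, and Pgam1, a mutase, at 345, 264, 363 and 354 TPM. Pkm, the pyruvate kinase gene whose splice forms PKM1 and PKM2 these gene counts do not separate, was at 2488, 1991, 2558 and 2606 TPM. Replicate 2 was the lowest library for each. Log2 changes in replicate 2 were -0.28 for Gapdh, -0.38 for Pgk1, -0.36 for Pgam1 and -0.30 for Pkm (edgeR adjusted p = 1.41e-05, 3.19e-06, 1.36e-05 and 3.05e-06). The tissue-restricted isoenzymes Pgk2, Pgam2 and Pklr had 0 counts, and the sperm form Gapdhs was at most 0.271 TPM.

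Enolase was Eno1, the form of most tissues, with small amounts of the muscle form Eno3 and the neuronal form Eno2. Eno1 was at 1292, 1009, 1266 and 1269 TPM. Eno3 (chromosome 11, 70657202 to 70662513, plus strand, mm10) was at 41.7, 67.2, 38.4 and 36.8 TPM, and Eno2 at 16.7, 20.1, 14.2 and 15.8 TPM. Replicate 2 was the lowest for Eno1 and the highest for both others. Eno1 was lower there (log2 change -0.28, SE 0.04, edgeR adjusted p = 1.61e-05), Eno3 was 1.80-fold higher (log2 change 0.85, SE 0.10, edgeR adjusted p = 1.13e-06) and Eno2 was 1.34-fold higher (log2 change 0.43, SE 0.10, edgeR adjusted p = 0.00401). Eno3 thus made up 6.13% of enolase TPM in replicate 2 and 2.79% to 3.09% in the others, against a mean of 94.9% ± 1.94 (SD, n = 4) for Eno1.

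The 2 lactate dehydrogenase genes moved in opposite directions in replicate 2. Ldha (chromosome 7, 46841475 to 46855627, plus strand, mm10) encodes the subunit that favours lactate formation, and was at 4468, 3651, 4602 and 4546 TPM, the highest of the 36 genes. Ldhb (chromosome 6, 142490249 to 142507957, minus strand, mm10), the subunit of heart and other oxidative tissues, was at 80.4, 149.7, 79.7 and 80.9 TPM. Ldha was lowest and Ldhb highest in replicate 2, and in neither did replicate 2 overlap the other libraries. Ldhb was 1.94-fold higher in replicate 2 (log2 change 0.96, SE 0.07, edgeR adjusted p = 2.7e-09), and Ldha was lower (log2 change -0.25, SE 0.03, edgeR adjusted p = 1.3e-05). The Ldhb share of their summed TPM was 3.94% in replicate 2 and 1.70% to 1.77% in the others, so Ldha held 97.7% ± 1.10 (SD, n = 4) over all libraries. The testis form Ldhc had 0 counts.

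The lactate carriers Slc16a1 (MCT1) and Slc16a3 (MCT4, an exporter of strongly glycolytic cells) were near each other in level. Slc16a1 was at 204, 172, 204 and 196 TPM, and Slc16a3 at 249, 155, 238 and 257 TPM. Both were lower in replicate 2, Slc16a3 more so (log2 change -0.61, edgeR adjusted p = 1.27e-08) than Slc16a1 (log2 change -0.17, edgeR adjusted p = 0.0178); the difference between these changes was not tested. With summed exon length, Slc16a3 was the higher in replicates 1, 3 and 4, and Slc16a1 in replicate 2, where its share of the pair was 52.5% against 43.2% to 46.2%. That order in replicate 2 depended on length. The log2 ratio of Slc16a1 to Slc16a3 there was -0.15 with reference transcript lengths and -0.12 with no length correction. Slc16a7 was at most 0.169 TPM, and Slc16a8 had 0 counts.

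**Figure D2:**
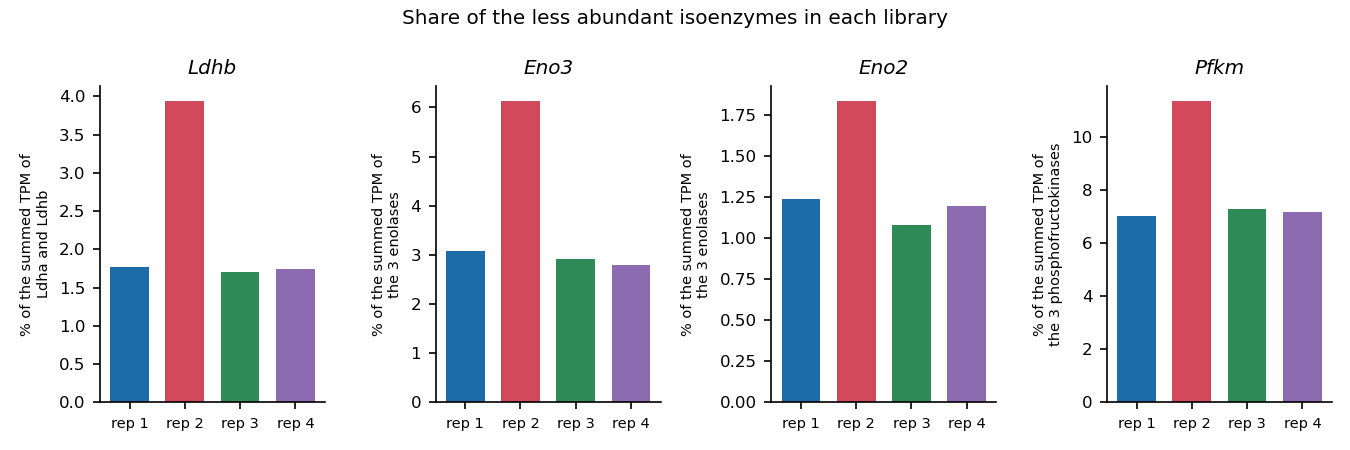
Share of the family's summed TPM, in percent, held by 4 less abundant isoenzymes in each library, with 1 bar per library and an axis from 0 in each panel. Replicate 2 is the highest of the 4 for Pfkm (11.4%), Eno3 (6.13%), Eno2 (1.83%) and Ldhb (3.94%), whereas Aldoc and Slc2a3, not drawn, had their lowest shares there.

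Pfkfb3 was the highest of the 4 Pfkfb genes, whose enzymes make and break fructose 2,6-bisphosphate, the activator of phosphofructokinase. The 4 Pfkfb genes encode kinases that also carry a phosphatase activity, and Pfkfb3 is the form with the strongest kinase bias. Pfkfb3 was at 54.3, 39.1, 54.2 and 54.9 TPM, Pfkfb4 at 9.24, 7.24, 6.99 and 8.17 TPM, Pfkfb1 at 8.19, 6.02, 9.03 and 8.65 TPM and Pfkfb2 at 2.51, 2.11, 2.89 and 2.72 TPM. Pfkfb3 held 73.2% ± 1.04 (SD, n = 4) of their summed TPM. Pfkfb3 was lower in replicate 2 (log2 change -0.42, SE 0.05, edgeR adjusted p = 1.05e-06), as was Pfkfb1 (log2 change -0.46, SE 0.14, edgeR adjusted p = 0.022; DESeq2 adjusted p = 0.101), and Pfkfb4 and Pfkfb2 did not pass (log2 change -0.11 and -0.30). Tigar, a phosphatase that lowers fructose 2,6-bisphosphate, was at 60.1, 65.4, 57.3 and 61.8 TPM and was higher in replicate 2 by 0.19 on the log2 scale (edgeR adjusted p = 0.0308), a call lost with DESeq2 (adjusted p = 0.101) and without replicate 3 (adjusted p = 0.0934).

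Of the pyruvate dehydrogenase kinases, which hold back the entry of pyruvate into mitochondrial oxidation, Pdk3 and Pdk1 were expressed, Pdk2 was low and Pdk4 was at the floor. Pdk3 was at 128, 121, 135 and 129 TPM, and Pdk1 at 79.0, 54.2, 82.1 and 83.9 TPM. Pdk2 was at 1.88, 2.73, 2.20 and 2.15 TPM. Pdk1 was lower in replicate 2 (log2 change -0.53, SE 0.05), whereas Pdk3 did not pass (log2 change -0.05) and neither did Pdk2 (log2 change 0.46). The Pdk1 share of the family's TPM was 30.4% in replicate 2 and 37.5% to 38.9% in the others. Pdk3 exceeded Pdk1 in 4 of 4 libraries, with a log2 ratio of Pdk1 to Pdk3 of -0.80 ± 0.24 (SD, n = 4) and -0.49 ± 0.24 with reference transcript lengths. For Pdk4, 0 counts in a library allow up to 3.

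Of the 5 pentose phosphate enzymes, 1 was lower in replicate 2 and 0 were higher, against 10.9% and 11.7% of all genes tested, a count too small to set apart from that background. Tkt (transketolase) was at 312, 306, 328 and 322 TPM, and Taldo1 (transaldolase), its partner in the non-oxidative branch, at 248, 250.3, 239 and 232 TPM. G6pdx, the rate-limiting enzyme of the oxidative branch, was at 131, 132, 133 and 134 TPM. Pgd, which makes the second NADPH, was at 156, 130.4, 159.9 and 164 TPM, and Pgls, the lactonase between them, at 45.4, 46.7, 43.8 and 45.9 TPM. Pgd was lower in replicate 2 (log2 change -0.23, SE 0.05, edgeR adjusted p = 0.00107), and the other 4 did not pass, with log2 changes of 0.06 for G6pdx, 0.11 for Pgls, 0.12 for Taldo1 and -0.01 for Tkt. Taldo1 passed when replicate 1 was left out (log2 change 0.15, edgeR adjusted p = 0.0281). The summed TPM of the 5 enzymes was 892, 865, 903 and 898 in replicates 1 to 4. That of the 9 genes from hexokinase to triose phosphate isomerase was 4871, 3392, 4922 and 4936. The median coefficient of variation over the 4 libraries was 3.20% for the pentose phosphate genes and 14.0% for all 36, and 2.41% and 2.56% without replicate 2. Whether the pentose phosphate genes changed less than the others in replicate 2 was not tested. Outside the 36 genes, the transketolase-like genes Tktl1 and Tktl2 had 0 counts, and Rpe, a further enzyme of this pathway, is given below.

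**Figure D3:**
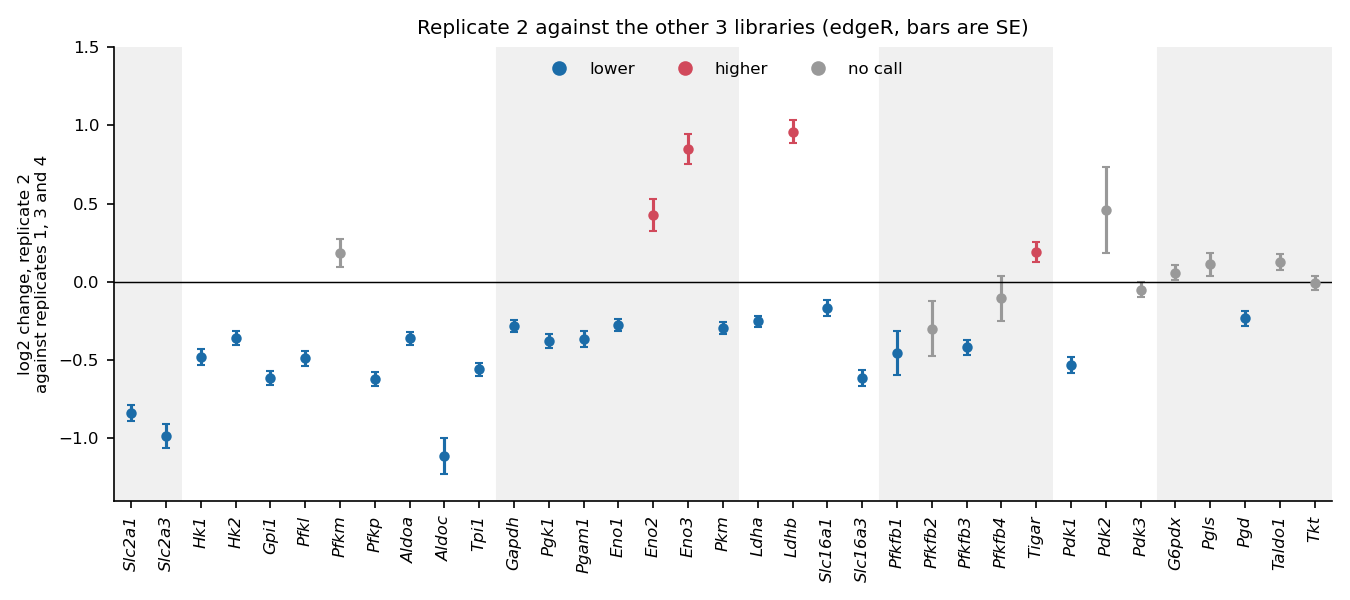
Log2 change of each of the 35 tested genes in replicate 2 against the other 3 libraries (edgeR), with bars of 1 SE and colours for lower, higher and no call at adjusted p under 0.05. Transporters and the upper steps lie between -1.11 (Aldoc) and 0.18 (Pfkm), the pentose phosphate enzymes between -0.23 (Pgd) and 0.12 (Taldo1), and Ldhb (0.96) and Eno3 (0.85) are the highest points.

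Within families, isoenzymes kept 1 order in nearly all libraries. Of 23 pairs, 20 had a ratio in every library, and 18 had the same order in 4 of 4 (exact two-sided sign-flip test, p = 0.125 each, the smallest that 4 libraries allow, 0.139 after Benjamini-Hochberg adjustment over the 20). Among those 20 pairs, the widest gaps were Aldoa over Aldoc (log2 ratio 6.41 ± 0.38), Eno1 over Eno2 (6.18 ± 0.36), Pdk3 over Pdk2 (-5.85 ± 0.27 for Pdk2 to Pdk3) and Ldha over Ldhb (5.52 ± 0.61; SD, n = 4 throughout). The exceptions were Slc16a1 to Slc16a3 (-0.19 ± 0.23, exact p = 0.25, adjusted 0.263) and Pfkfb1 to Pfkfb4 (0.00 ± 0.28, exact p = 1). In 4 of the 9 families 1 gene held over 80% of the summed TPM: Slc2a1, Aldoa, Eno1 and Ldha. For Slc2a1 this holds against Slc2a3 alone, and its share was 67.2% with the 8 other transporters counted. With reference transcript lengths Pfkfb3 joined them, at 81.6% ± 0.576 (SD, n = 4).

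**Figure D4:**
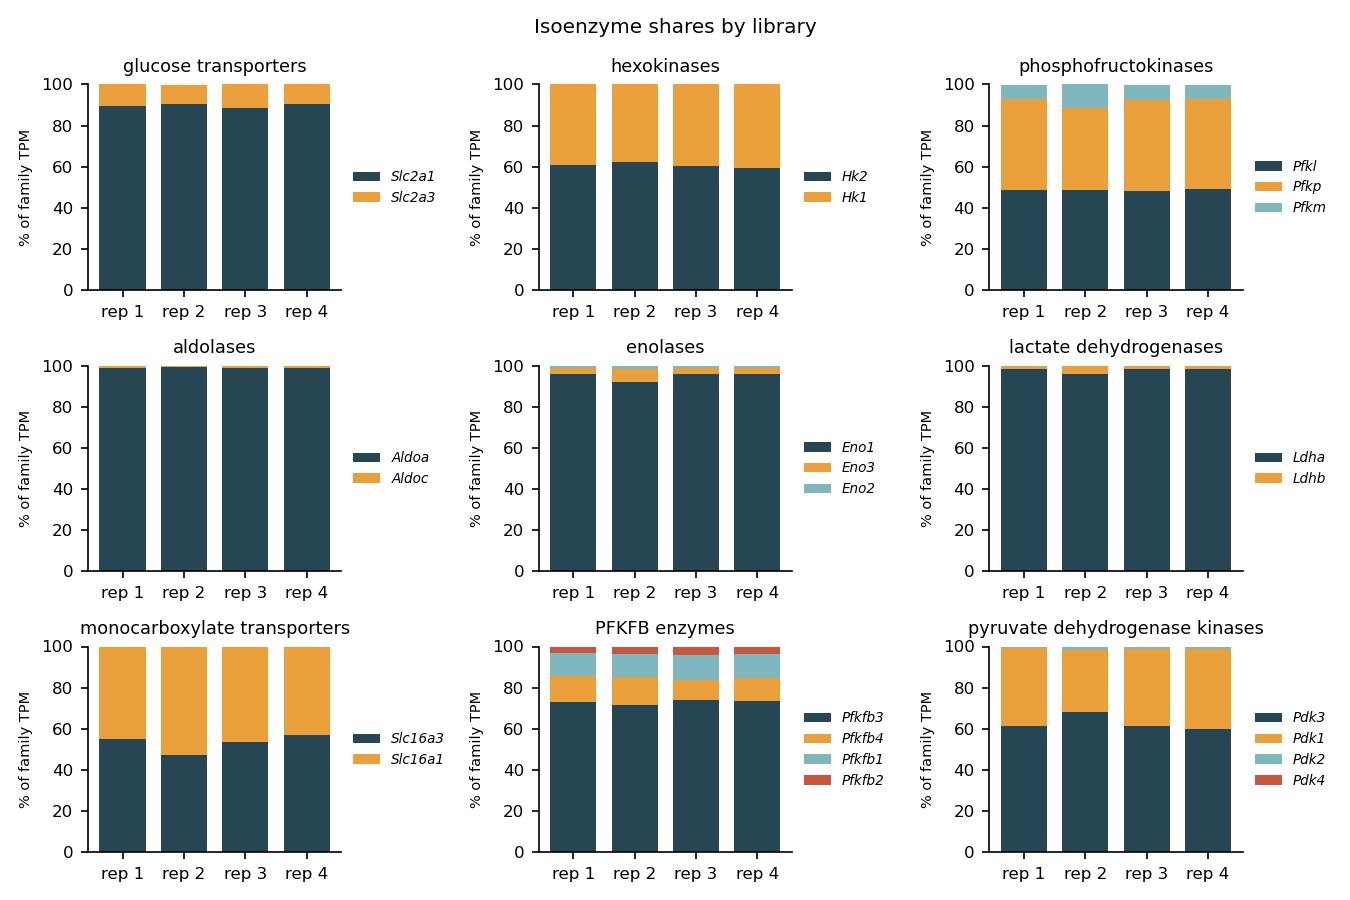
Share of each family's summed TPM held by each isoenzyme, in percent, with 1 stacked bar per library and 1 panel for each of the 9 families. Aldolase, enolase, lactate dehydrogenase and the pair of glucose transporters are held mostly by 1 gene in every library, while hexokinase, phosphofructokinase, the lactate carriers and the pyruvate dehydrogenase kinases are split.

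**Figure D5:**
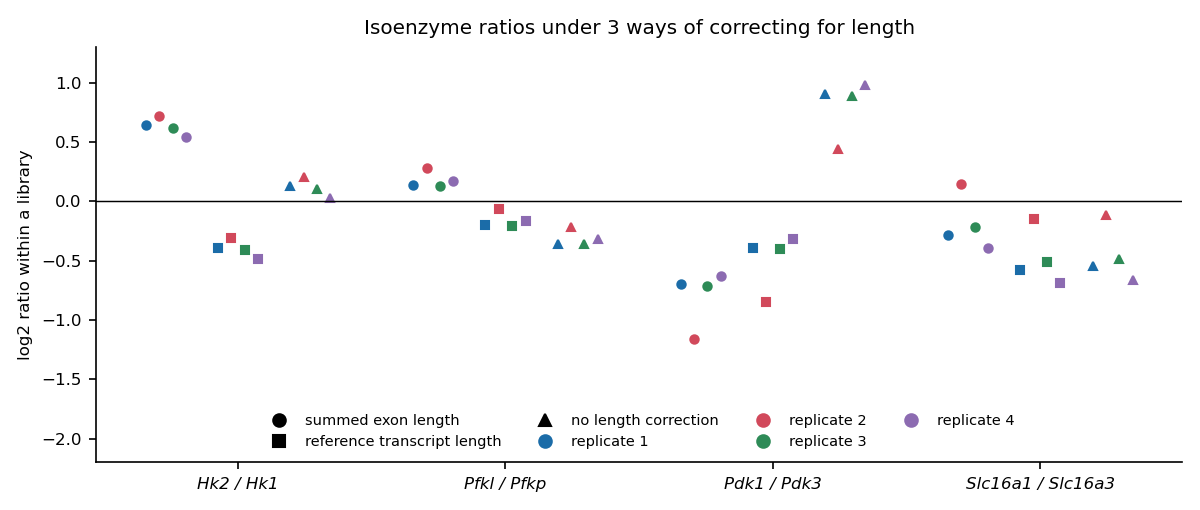
Log2 ratio of 2 isoenzymes in each library under 3 ways of correcting for length: summed exon length (circles), 1 reference transcript per gene (squares) and none (triangles). Hk2 to Hk1 and Pfkl to Pfkp lie above 0 with summed exon length and below 0 with reference transcripts, Pdk1 to Pdk3 lies below 0 with both, and Slc16a1 to Slc16a3 lies below 0 with both except in replicate 2 with summed exon length.

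Other genes of these pathways were also measured. Of 55 such genes, 39 were tested, 11 had 0 counts and 5 had 1 to 9. Above 1 TPM were 27 of the 39, near the 70.7% of all genes tested. In replicate 2, 6 were lower and 3 were higher, against 10.9% and 11.7% of all genes, with a median log2 change of 0.01. The highest was Bsg (basigin, the chaperone that carries MCT1 and MCT4 to the membrane) at 1381 ± 127 TPM (SD, n = 4), followed by Emb (embigin, a related chaperone) at 474 ± 16.9 TPM. Next came Prps1 (201 ± 5.26 TPM), which makes phosphoribosyl pyrophosphate from ribose 5-phosphate, Pgm1 (162 ± 35.8 TPM), which links glycogen to glucose 6-phosphate, and Txnip (149 ± 2.79 TPM), which lowers glucose uptake. Pgam5, Prps2, Rpe, Slc2a6 and Gpd2 were at 67.9 to 135 TPM. Their log2 changes in replicate 2 were 0.03, 0.23, 0.35, -0.16 and -0.27, in that order. Eno1b, a near-identical copy of Eno1, had a log2 change of -1.08 (edgeR adjusted p = 0.0256) on 262 counts in all.

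Near-identical copies limit some of these values. Under the counter's defaults, reads that map to several places would be left out, and the recorded command holds no option to keep them. At 95% identity over at least 200 bases, 10 of the 36 genes had at least 1 other gene in GENCODE M21. Gapdh had 77, 74 of them pseudogenes, covering 94.2% of its transcript, and their counts came to 1.01% of its own. Coverage was 85.6% for Eno1, 76.8% for Ldhb, 68.8% for Pgk1, 65.5% for Pkm, 63.6% for Pfkfb2, 55.0% for Ldha, 50.2% for Gpi1, 43.1% for Pgam1 and 19.3% for Tpi1. Levels of these 10 genes are therefore uncertain, and so are the shares within the lactate dehydrogenase, enolase and Pfkfb families.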

How the data were processed

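The 4 deposited tables hold raw counts of fragments per gene, made by the authors with featureCounts 1.4.6-p4, per the file headers, from read pairs counted on the reverse strand (option 2) with GENCODE M13 as annotation. The build is mm10 per the labels. The deposited tables also give each gene's summed exon length. The aligner is not given in the sources used here. Symbols came from GENCODE M21, and 50376 of 50600 identifiers matched. Total counts per library ran from 33123029 to 37746767, and a count of 3 was used as the floor for 0 counts.

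TPM was computed here from each count divided by that length. Genes with at least 10 summed counts were tested with edgeR 4.0.16 in R 4.3.3, using robust quasi-likelihood fits with Benjamini-Hochberg adjustment over all of them. The level was tested against 1 TPM in an intercept-only fit scaled as for TPM, without TMM. Each library was tested against the other 3 with TMM. Isoenzyme ratios within libraries were tested with an exact sign-flip test. DESeq2 1.42.0, other filters, lengths and leaving out each library were the alternatives. Copies were sought with BLAST 2.17.0 and tables handled with pandas 2.3.3. The edgeR level fit and the edgeR fit of replicate 2 against the others were tested on simulated data, and the other fits were not. The text names all 36 genes, and of 55 others in the pathways the 10 highest, isoenzymes of a named family and those called with a log2 change of at least 1. Some results that this rule names are not reported here. The genes and lists were chosen with earlier results of these data known, among them that glycolytic genes were lower in replicate 2.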

Additional observations from a re-analysis of the deposited data

Results flagged for a closer look

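In 15 of the 35 genes tested, 1 library lay far from the other 3, by a gap beyond Dixon's 95% critical value for 4 values, and in all 15 it was replicate 2. About 1 gene in 20 would pass by chance, and the genes share the same libraries. Of all 17337 genes tested, 10.5% had such a library, with replicate 2 the lowest in 3.96% and the highest in 3.46%. Replicate 2 was the lowest in 13: Slc2a1 (195 TPM), Hk2 (199 TPM), Gpi1 (265 TPM), Pfkl (156 TPM), Pfkp (128 TPM), Aldoa (1286 TPM), Aldoc (10.3 TPM), Tpi1 (1190.0 TPM), Pgk1 (689.8 TPM), Eno1 (1009 TPM), Ldha (3651 TPM), Pfkfb3 (39.1 TPM) and Pdk1 (54.2 TPM). It was the highest in Eno3 (67.2 TPM) and Ldhb (149.7 TPM). The summed Th17 markers were also lowest in replicate 2, and their part in these values was not tested.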

How the results depend on the processing

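No paired analysis was possible because the libraries form 1 group. The counts of genes above 1 TPM (35), lower (21 to 22) and higher (3 to 5) in replicate 2 stayed within 1.5 times of the reported ones under the alternatives run. Isoenzyme orders and shares depended on length. With reference transcript lengths, 20 shares moved by at least their SD and 4 by less. Replicate 2 shares were then 2.68% for Eno3, 6.16% for Pfkm and 2.64% for Ldhb, still the highest library for each. The mean Slc2a1 share of its pair was 83.7%. Slc16a1 exceeded Slc16a3 in replicate 2 with summed exon length only. With reference transcript lengths, the log2 ratio was -0.40 for Hk2 to Hk1 and -0.16 for Pfkl to Pfkp. With no length correction it was -0.31 for Pfkl to Pfkp, 0.0079 for Eno2 to Eno3, -0.28 for Pfkfb1 to Pfkfb4 and 0.80 for Pdk1 to Pdk3. Pfkfb1 to Pfkfb4 ran from -0.12 to 0.0927 when each replicate was left out, with -0.12 without replicate 3 and -0.02 without replicate 4. Pfkfb1 and Tigar lost their call with DESeq2, Tigar without replicate 3, and Taldo1 gained one without replicate 1. The other 112 ratios under the alternatives kept their sign. Depth limits Pdk4, Pdk2 and Pfkfb2, which had 5, 307 and 796 counts in all.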
